A study of Drosophila melanogaster with 8 samples.

Results

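Of 10 regulators of germline stem cells and of their transit-amplifying daughters, 9 could be read in RNA-seq of whole fly testes: *bam*, *bgcn*, *tut*, *mei-P26*, *nanos* (also written *nos*), *pum*, *stwl*, *Rbp9* and *bru1*. The genes were listed by name for their known roles, with earlier results of these data known. Each was matched through its current FlyBase symbol to an identifier among the 14256 genes of the deposited count table. The current identifier of *how* is not among them, and *how* is not analysed here. All 9 matched genes also have a value in the authors' table of corrected RPKM (cRPKM), and all 9 passed the filter on low counts.

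The study asked how E(Pc) (Enhancer of Polycomb, a chromatin protein) in the somatic cyst cells affects differentiation of the neighboring germ cells. It compared adult testes of *Tj-Gal4* males with testes of *Tj-Gal4/+; UAS-E(Pc) shRNA/+* males, written *Tj>E(Pc) shRNA*, both at 5 days of age, with 2 libraries for each genotype. Both genotypes carry the *Tj-Gal4* driver, which acts in somatic gonadal cells including the hub, so the hairpin is not directed to the germ cells in which most of the genes described here act. The control label names no hairpin transgene, and it does not say how many copies of the driver the control males carry. Each library came from a single pair of testes.

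In the testis, a germline stem cell divides next to the hub and yields a gonialblast, which passes through a fixed series of synchronous mitoses as spermatogonia before its descendants become spermatocytes. The change from mitosis to the spermatocyte state requires Bam, whose protein accumulates during these mitoses, together with its partner Bgcn and the RNA-binding protein Tut. This complex acts on mRNAs, among them that of *mei-P26*, which encodes a TRIM-NHL protein also needed to end the mitotic series. Nanos and Pumilio are translational repressors best known for keeping ovarian germline stem cells undifferentiated, and Stonewall (*stwl*) is a chromatin-associated protein with a role in maintaining the same cells. Rbp9, an ELAV-family protein, and Bruno (*bru1*), a translational repressor, are known mainly from differentiating cysts of the ovary.

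Total counts ranged from 3307767 to 4273908 in the *Tj-Gal4* libraries and from 3691459 to 6251181 in those labelled *Tj>E(Pc) shRNA*, replicate 1 of the latter being the deepest. The targeted gene *E(Pc)* held 854 and 1187 counts in the controls and 2685 and 1235 counts in the labelled knockdown libraries. The log2 fold change, labelled knockdown over control, was 0.44 (SE 0.18), and edgeR's quasi-likelihood test gave an adjusted p of 0.083. In cRPKM, *E(Pc)* stood at 27.0 and 27.2 in the controls and at 39.8 and 33.5 in the labelled knockdown. *E(Pc)* mRNA of whole testes was thus not lower in the libraries labelled as knockdown, and every direction given here rests on the labels. The paper imaged a GFP-tagged E(Pc) under RNAi and reports far less signal in cyst cells than in adjacent germ cells. Germline and spermatid markers were present (*aub*, *zpg*, *can*, *dj*, *Mst98Ca*), as were those of cyst cells and hub (*tj*, *eya*, *upd1*). Among accessory gland markers, *SP* and *Acp26Aa* stayed under 1 CPM (counts relative to the TMM-scaled library total) in every library and *Acp36DE* lay between 44.6 and 57.6 CPM.

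Transcripts of *bam*, *nanos*, *pum* and *stwl* were 2.08-fold to 3.07-fold higher in the labelled knockdown libraries, whereas *bgcn*, *tut*, *mei-P26*, *Rbp9* and *bru1* were not called. The test was edgeR's quasi-likelihood fit to the counts, scaled by edgeR's TMM method, and a gene was called where its p-value, adjusted by Benjamini-Hochberg over all 11163 genes tested, was under 0.05. Of the 9 regulators, 4 were called higher, where 22.5% of all genes tested were called higher. By the same edgeR test 0 of 9 were called lower, also 0 at an unadjusted p under 0.05 and 0 with DESeq2, edgeR's exact test and limma, where 11.4% of all genes were called lower. Calls in either direction made up 33.9% of all genes. Of these, 66.4% were higher, and with a trend on gene length removed 54.9% were higher. The median log2 fold change was 0.41 over the regulators and 0.0017 over all genes. In CPM, the labelled knockdown was above the controls with no overlap for 5 regulators and below them for 1, against 38.9% and 33.8% of all genes. In bulk testes, more cells of a type and more RNA per cell cannot be told apart, and neither can fewer cells and less RNA per cell.

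**Figure D1:**
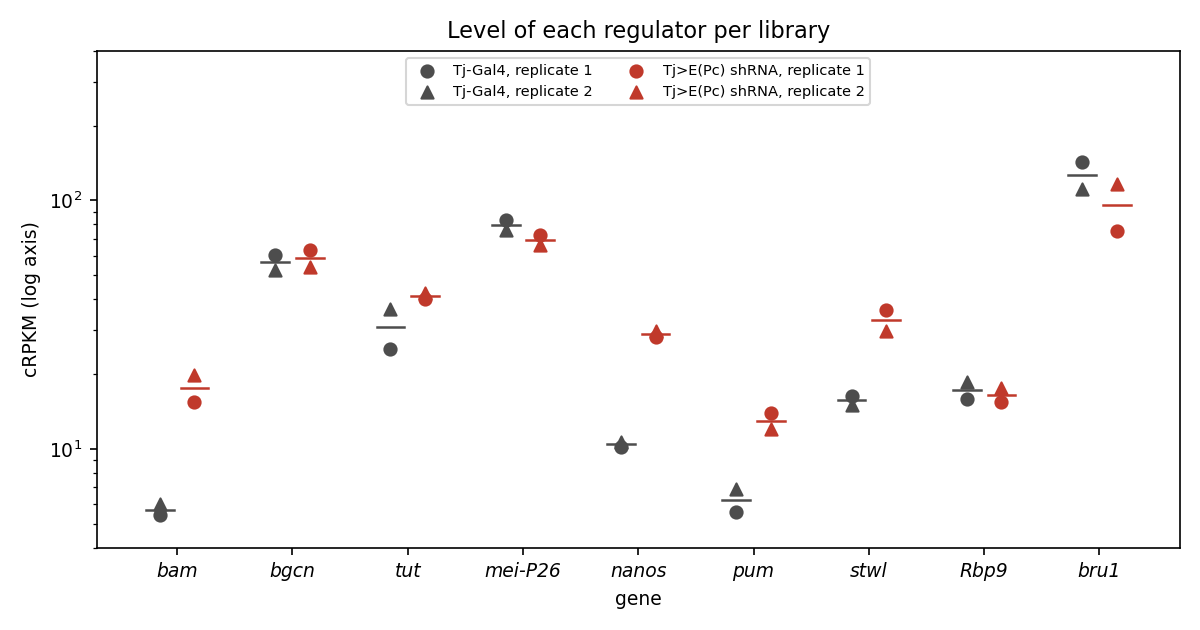
Level of each of the 9 regulators as the authors' cRPKM on a log axis, 1 point per library, with the mean of each genotype as a line. For *bam*, *nanos*, *pum* and *stwl* both *Tj>E(Pc) shRNA* points lie well above both *Tj-Gal4* points, and for *bgcn*, *Rbp9* and *bru1* the genotypes overlap.

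Among the switch genes, *bam* (FBgn0000158, chromosome 3R) had 36 and 55 counts in control replicates 1 and 2 and 223 and 154 counts in labelled knockdown replicates 1 and 2, the order used for every gene here. As TMM-scaled CPM, these were 11.5 and 12.8 in the controls and 33.7 and 42.2 in the labelled knockdown. The knockdown values were all above the control values, and the gap between genotypes was larger than the gap within either. The means were 12.2 ± 0.886 and 37.9 ± 6.01 CPM (SD, n = 2 each), and the log2 fold change was 1.62 (SE 0.22, edgeR adjusted p = 6.52e-04). This is a 3.07-fold rise with a 95% interval of 2.19 to 4.30. Leaving out any 1 library, the log2 fold change ran from 1.46 to 1.79, and *bam* was called each time. In the authors' cRPKM, *bam* rose from 5.40 and 6.0 to 15.5 and 19.9.

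*bgcn* (FBgn0004581, chromosome 2R), which encodes the partner of Bam, a protein related to DExH-box helicases, did not follow *bam*. It held 806 and 975 counts in the controls and 1812 and 842 counts in the labelled knockdown libraries. After scaling these were 258 and 227 CPM against 274 and 231 CPM, so the genotypes overlapped. The change on the log2 scale was 0.06 (SE 0.17, edgeR adjusted p = 0.809), and the 95% interval of the fold change ran from 0.799 to 1.36. A change of the size seen for *bam* lies outside this interval, while a smaller rise or fall lies within it.

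*tut* (FBgn0052364, chromosome 3L), the RNA-binding component of the complex, held 82 and 162 counts in the controls and 280 and 161 counts in the labelled knockdown. Its scaled values were 26.3 and 37.7 CPM in the controls and 42.3 and 44.1 CPM in the labelled knockdown. Both knockdown libraries were above both controls, but the controls differed from each other by more than control replicate 2 differed from either knockdown library. At a log2 fold change of 0.41 (SE 0.19, edgeR adjusted p = 0.108) *tut* was not called, with a 95% interval of the fold change from 0.998 to 1.78. Whether *tut* was called depended on a single control and on the fit. Without *Tj-Gal4* replicate 2 the log2 fold change was 0.72 and was called (adjusted p = 0.0307, edgeR), and without *Tj-Gal4* replicate 1 it was 0.18 (adjusted p = 0.643, edgeR). With a trend on gene length removed it was 0.47 and was called (adjusted p = 0.0420, edgeR).

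*mei-P26* (FBgn0026206, chromosome X) held 1460 and 1845 counts in the controls and 2716 and 1352 counts in the labelled knockdown libraries. Its scaled values were 468 and 429 CPM against 410 and 370 CPM. It was the one regulator with both labelled knockdown libraries below both controls, by a margin smaller than the spread within either genotype. The log2 fold change was -0.20 (SE 0.19, edgeR adjusted p = 0.408), and the 95% interval of the fold change was 0.653 to 1.16.

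**Figure D2:**
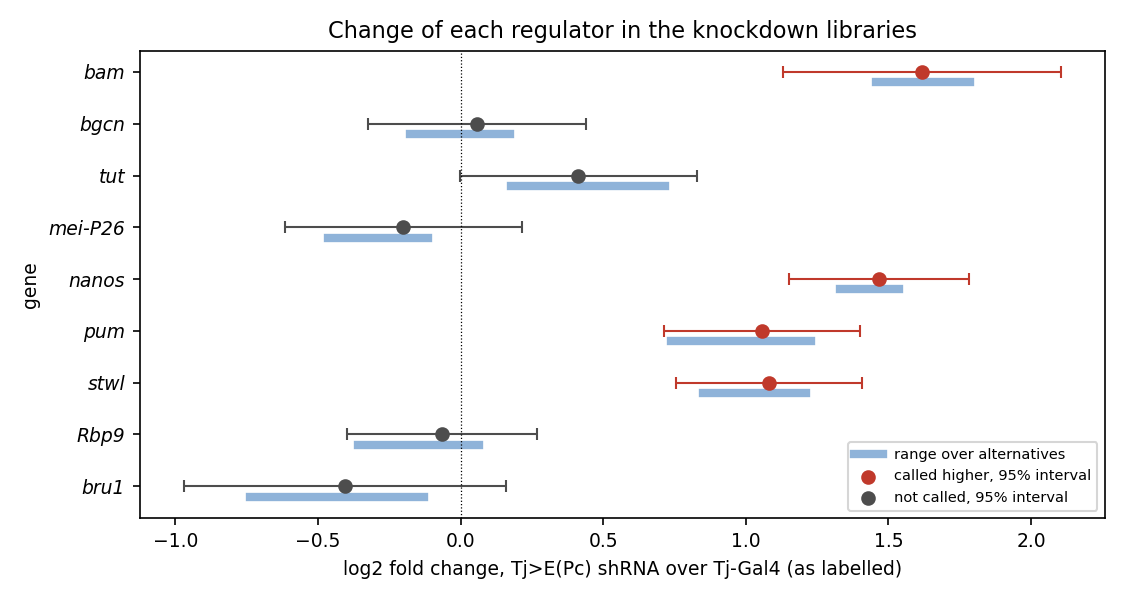
Log2 fold change of each regulator from edgeR's quasi-likelihood fit, with its 95% interval (n = 2 libraries a genotype) and, below it in blue, the lowest to highest value over 18 alternative settings. The 4 genes called higher lie between 1.06 and 1.62, and the intervals of the other 5 include 0.

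The genes known for stem cell maintenance rose together. *nanos* (FBgn0002962, chromosome 3R) held 80 and 115 counts in the controls and 472 and 271 counts in the labelled knockdown. Its scaled values of 25.7 and 26.8 CPM became 71.3 and 74.2 CPM, and the replicates of either genotype lay close together. The log2 fold change was 1.47 (SE 0.14, edgeR adjusted p = 1.56e-04), which is 2.77-fold with a 95% interval of 2.22 to 3.44. Leaving out any 1 library, it ran from 1.42 to 1.51. In the current RefSeq annotation (Release 6), the span of *nanos* overlaps that of *CG11779* by 2641 bp. *CG11779* held 1440, 1642, 1838 and 1236 counts in the same libraries. The spans of *bam*, *bgcn*, *pum*, *Rbp9* and *bru1* also overlap those of other genes, that of *bam* with *CG11854*, which held 4, 7, 13 and 19 counts. Reads from overlapping parts could not be separated here.

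*pum* (FBgn0003165, chromosome 3R), whose product binds mRNA together with Nanos, held 178 and 304 counts in the controls and 953 and 448 counts in the labelled knockdown libraries. Its values were 57.1 and 70.7 CPM against 144 and 123 CPM. The genotypes were well apart, though both pairs of replicates were wider in CPM than those of *nanos*. *pum* rose by 1.06 on the log2 scale (SE 0.15, edgeR adjusted p = 9.44e-04), with a 95% interval of the fold change from 1.64 to 2.64. The lowest value over the settings tried, 0.74, came with a trend on gene length removed, and the merged exons of *pum* are the longest of the 9 regulators at 9602 bp.

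*stwl* (FBgn0003459, chromosome 3L) held 198 and 252 counts in the controls and 934 and 424 counts in the labelled knockdown. Its values were 63.5 and 58.6 CPM against 141 and 116 CPM, again with no overlap. *stwl* rose by 1.08 on the log2 scale (SE 0.15, edgeR adjusted p = 6.67e-04), with a 95% interval of the fold change from 1.69 to 2.66.

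The genes known from cyst differentiation were not called. *Rbp9* (FBgn0010263, chromosome 2L) held 426, 689, 888 and 550 counts, or 137 and 160 CPM in the controls and 134 and 151 CPM in the labelled knockdown. The genotypes interleaved, and the log2 fold change of -0.06 (SE 0.15, edgeR adjusted p = 0.752) was smaller than its error. Its 95% interval in fold, 0.759 to 1.204, leaves out changes as large as those of the stem cell genes.

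*bru1* (FBgn0000114, chromosome 2L) had the highest level of the regulators and a wide spread between replicates. It held 2392 and 2566 counts in the controls and 2709 and 2266 counts in the labelled knockdown, or 767 and 597 CPM against 409 and 621 CPM. Labelled knockdown replicate 2 lay between the controls, and replicate 1, the deepest library, lay below both. Before scaling, its counts differed little between libraries of unequal depth and stood at 0.452 to 0.540 per base. The log2 fold change of -0.41 (SE 0.25, edgeR adjusted p = 0.220) rested on replicate 1. Without it the value was -0.13, and without labelled knockdown replicate 2 it was -0.74 and was called lower (adjusted p = 0.0330, edgeR).

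Replicates were also compared with counting error alone, by an exact two-sided binomial test with adjustment over all genes with counts. This compares the 2 libraries of a genotype, not conditions, and it treats counts as independent reads, although no gene reached 1 count per base of merged exon in any library (highest values 0.924 to 0.965). Between the *Tj-Gal4* libraries *bru1* was the one regulator that differed beyond counting error, where 8.07% of all genes did. Between the labelled knockdown libraries *bgcn*, *mei-P26*, *pum*, *stwl* and *bru1* differed, where 25.9% of all genes did. Replicates of *bam*, *nanos*, *tut* and *Rbp9* did not pass this test in either genotype.

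Levels of different genes were compared per length, in cRPKM. In *Tj-Gal4* testes the order was *bru1* (127 ± 22.6), *mei-P26* (79.8 ± 4.99), *bgcn* (56.4 ± 5.28), *tut* (30.8 ± 7.88), *Rbp9* (17.3 ± 1.94), *stwl* (15.7 ± 0.913), *nanos* (10.4 ± 0.306), *pum* (6.23 ± 0.946) and *bam* (5.70 ± 0.422; SD, n = 2 each). The replicates of *Rbp9* and *stwl* overlapped, as did those of *pum* and *bam*, and the other neighbours in this order did not overlap. *bam* was therefore at the bottom of the order, at 0.0899 and 0.114 times the *bgcn* level, although their proteins work as partners.

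In the labelled knockdown libraries *bru1*, *mei-P26*, *bgcn* and *tut* kept the first 4 places, at 95.9 ± 28.7, 69.4 ± 4.50, 58.6 ± 6.68 and 41.4 ± 1.64 cRPKM (SD, n = 2 each). Below them stood *stwl* (33.0 ± 4.35), *nanos* (28.9 ± 1.09), *bam* (17.7 ± 3.12), *Rbp9* (16.5 ± 1.52) and *pum* (13.0 ± 1.38). *bam* and *Rbp9* now overlapped. On log2(cRPKM + 1) an exact two-sided permutation test gave p = 0.333 for *bam*, *tut*, *mei-P26*, *nanos*, *pum* and *stwl*, which is the smallest p that 2 libraries against 2 allow, and p = 0.667 for *bgcn*, *Rbp9* and *bru1*.

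Ratios within a library gave another view of the switch genes. The ratio of *bam* to *bgcn* in cRPKM was 0.0899 and 0.114 in the controls and 0.244 and 0.369 in the labelled knockdown, 2.97 times as high on the geometric mean. The ratio of *bam* to *mei-P26* rose from 0.0648 and 0.0786 to 0.213 and 0.30, and that of *bam* to *tut* from 0.214 and 0.165 to 0.384 and 0.467. For each of these 3 ratios the genotypes did not overlap (exact two-sided permutation test, p = 0.333, the smallest possible). All 3 use the same *bam* values, so their rises follow from that of *bam* over genes that were not called. They are given as a description, and the part of coverage in them was not tested. The ratio of *bam* to *nanos* stayed within a narrow range, at 0.528 and 0.563 in the controls and 0.549 and 0.669 in the labelled knockdown (exact two-sided permutation test, p = 0.667).

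Ratios were also taken to germline genes that rose. The geometric mean of *zpg*, a germline gap junction gene, and *aub*, a Piwi-family gene of the germline, served as the reference, because the current identifier of *vas* is not in the count table. Both genes were known from earlier results to be higher in these libraries, so a fall of any gene that did not rise was fixed by this choice, and the ratios are given as a description. *bam* stood at 0.479 and 0.560 times this reference in the controls and at 0.440 and 0.492 times in the labelled knockdown, with overlap between genotypes. The sign of this change depended on the reference, with a log2 change of -0.42 against *zpg* alone and 0.11 against *aub* alone. The ratio of *bgcn* went from 5.33 and 4.91 times the reference to 1.80 and 1.33 times, that of *tut* from 2.24 and 3.40 to 1.14 and 1.05 times, and that of *mei-P26* from 7.39 and 7.12 to 2.06 and 1.64 times.

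**Figure D3:**
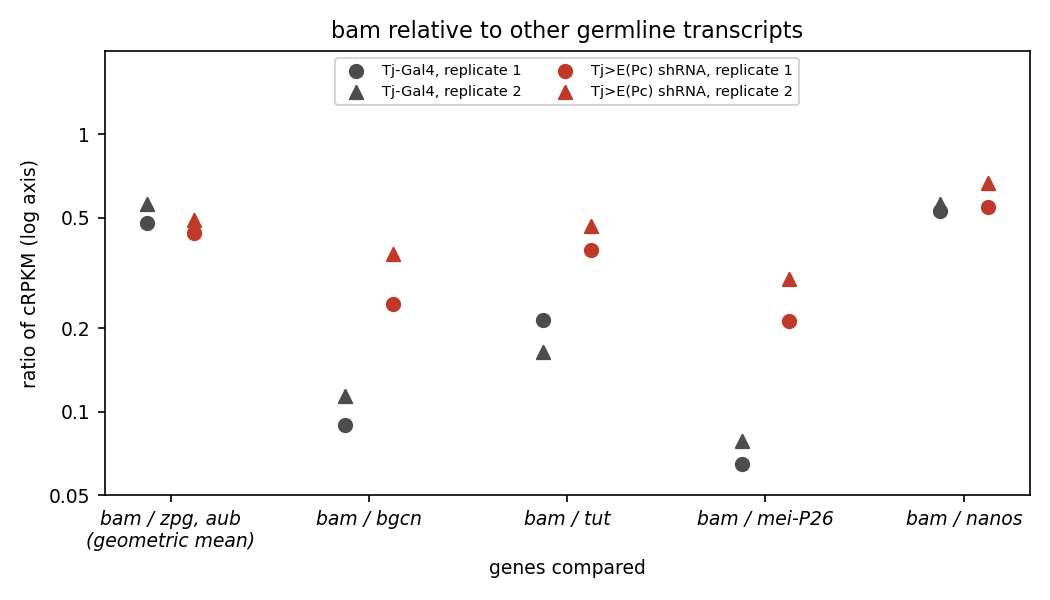
Ratio of *bam* to other germline transcripts in cRPKM on a log axis, 1 point per library. The ratios to *bgcn*, *tut* and *mei-P26* are higher in both *Tj>E(Pc) shRNA* libraries, and those to *zpg* and *aub* and to *nanos* overlap between genotypes.

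The share of genes called in each direction changed with how densely a gene was covered. The highest gene of each library stood just under 1 count per base of merged exon, although library totals differed, so the counts have a ceiling that densely covered genes approach. Among genes with 0.05 to 0.1 counts per base, where *bam*, *nanos* and *Rbp9* lie, 45.5% were called higher, and among those with 0.1 to 0.2, where *stwl* and *tut* lie, 36.1% were. Between 0.2 and 0.4, the place of *bgcn* and *mei-P26*, 8.96% were called higher, and above 0.4, the place of *bru1*, 0.208% were. *pum* lies under 0.05, where 22% were called higher. Coverage here is the mean over all 4 libraries, the labelled knockdown included, so a gene's own rise moves it towards a higher band. In the controls alone *bam* and *nanos* had 0.0228 and 0.0415 counts per base and *stwl* had 0.0619, each in the band below. By the mean over all libraries *bam*, *nanos* and *stwl* lie where rises were frequent, as do *tut* and *Rbp9*, which were not called. By the same mean *bgcn*, *mei-P26* and *bru1* lie where rises were rare. The part of coverage in these results was not tested.

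Within the same bands of coverage, a log2 fold change at least as large as that of *bam* was seen in 61 of 1833 genes (3.33%), as large as that of *nanos* in 4.69%, as large as that of *stwl* in 4.65% of 2259 genes, and as large as that of *pum* in 15% of 3082 genes. For *tut* the share was 39.2%, for *bgcn* 33.6%, for *mei-P26* 61.2%, for *bru1* 49.2% and for *Rbp9* 76.1%. The bands rest in part on the same labelled knockdown counts, so these shares are given as a description. With a trend on library depth removed, the log2 fold changes of *bam*, *nanos*, *pum* and *stwl* were 1.54, 1.42, 0.96 and 1.06, and all 4 were called (adjusted p of 0.00103 at most, edgeR). The value of *bru1* was -0.27 in the same fit.

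**Figure D4:**
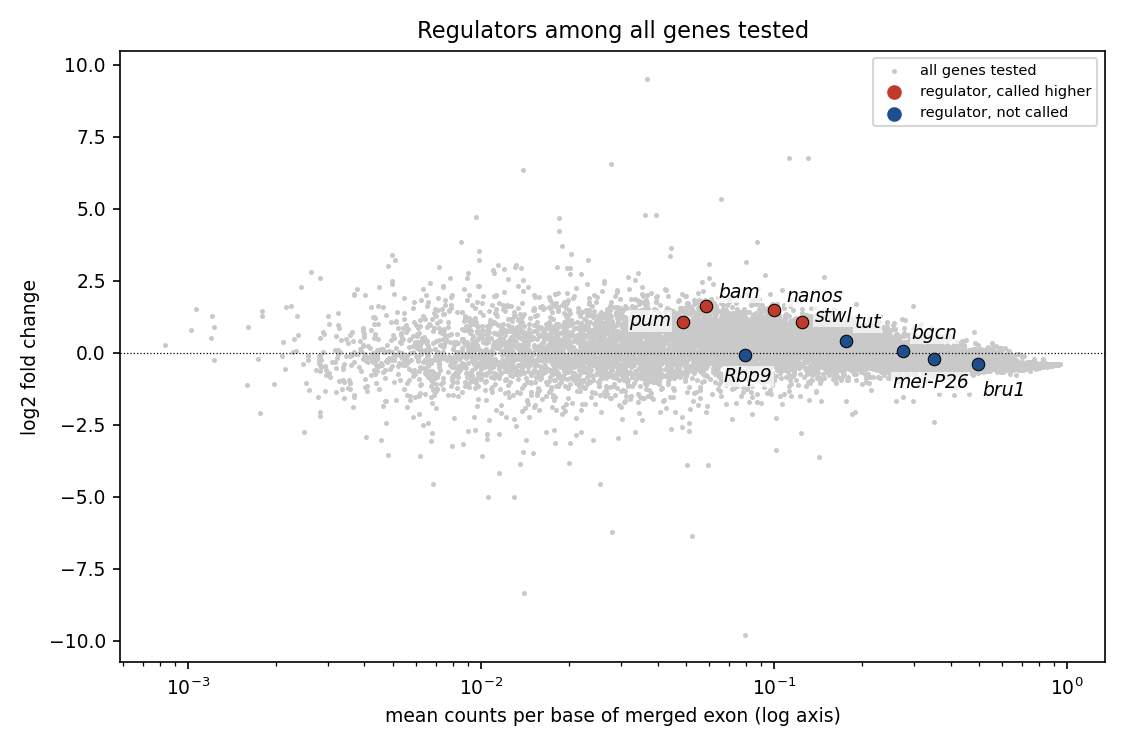
Log2 fold change against mean counts per base of merged exon (log axis) for the 11163 genes tested, in grey, with the 9 regulators marked. The regulators called higher (red) have 0.0490 to 0.124 mean counts per base, and those not called (blue) 0.0794 to 0.495.

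Of 14 tested genes that act with these regulators on RNA, 4 were called higher, a share near the 22.5% of all genes, and 8 had a negative log2 fold change. The list median was -0.20, where that of all genes was 0.0017. Median coverage of the list was 0.412 counts per base, and among all genes over 0.4 the median was -0.41 and 0.208% were called higher. The 4 called higher had 0.0221 to 0.0933 counts per base, where 22% to 45.5% of genes were called higher. *brat*, whose TRIM-NHL product joins Nanos and Pumilio on mRNA, rose from 43.0 and 43.5 CPM to 101 and 79.2 CPM (log2 fold change 1.07, adjusted p = 9.11e-04, edgeR). *Dcr-1* and *AGO1*, core genes of the microRNA pathway, rose by log2 fold changes of 1.16 and 1.04, and *otu*, a deubiquitinase gene of the female germline, by 0.93. The genes of the CCR4-NOT deadenylase, through which Nanos, Pumilio and Bam are known to act, were not called. These were *twin* (log2 fold change -0.43), *Not1* (-0.34) and *Pop2* (-0.26), and their coverage was above 0.38 counts per base. In the fits that left out 1 library, 3 or 4 partners were called higher, and 3 were called lower without labelled knockdown replicate 2.

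The early germline list was chosen with earlier results of these data known, and its genes *zpg* and *aub* were already known to be higher. Its counts are therefore given as a description. Of 8 early germline genes tested, 6 were called higher, where 22.5% of all genes were, and the list median was 1.002. These genes spread over 4 bands of coverage, in which 22%, 45.5%, 36.1% and 8.96% of all genes were called higher. The largest change was that of *ovo*, a germline transcription factor gene, from 3.21 and 2.56 CPM to 24.8 and 28.8 CPM (log2 fold change 3.21, adjusted p = 1.51e-04, edgeR). *zpg* rose from 12.5 and 11.6 CPM to 48.5 and 51.2 CPM (log2 fold change 2.05), and *aub* from 52.6 and 51.4 CPM to 135 and 163 CPM (log2 fold change 1.51). *Phf7*, a gene of male germline identity, rose by 1.07. *tud* (0.41) and *stet* (-0.22) were not called. In the fits that left out 1 library, 5 or 6 of the 8 were called higher.

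BMP signals from the niche are known to repress *bam* in germline stem cells. Of 9 genes of this pathway tested, 4 were called higher, where 22.5% of all genes were, and the list median was 0.38. All 9 had under 0.2 counts per base, where 22% to 45.5% of genes were called higher. These were the receptor genes *wit* (log2 fold change 1.46), *put* (0.87) and *tkv* (0.47), and *Mad* (0.44), which encodes the signal transducer. The ligand genes *dpp* (-0.23) and *gbb* (-0.29) were not called, and neither was *Dad* (0.38), a target and inhibitor of the pathway. The count called higher was 2 without *Tj-Gal4* replicate 1 and 6 without labelled knockdown replicate 2.

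Of 15 genes of the spermatocyte program tested, 6 were called higher and 1 lower, where 22.5% and 11.4% of all genes were, and the list median was 0.17. *comr*, *tomb* and *can*, genes of meiotic arrest, rose by log2 fold changes of 0.71, 0.67 and 0.62, and *fzo*, the spermatid mitofusin gene, fell by 0.55. The genes called higher had 0.102 to 0.389 counts per base, in bands where 36.1% and 8.96% of all genes were called higher. *fzo* had 0.615 counts per base, where 21.8% were called lower. Leaving out *Tj-Gal4* replicate 1 or replicate 2, the count called higher was 1. The call of *fzo* was lost leaving out either of these or labelled knockdown replicate 1. All 10 post-meiotic genes had a negative log2 fold change, with a median of -0.45, and 2 of them, the protamine genes *ProtA* (-0.60) and *ProtB* (-0.53), were called lower. Their coverage was high, at a median of 0.655 counts per base, and among all 1925 genes with over 0.4 counts per base the median was -0.41 and 21.8% were called lower, so the list lay near that background. Labelled knockdown replicate 1 was the lowest library for this list in summed level, at 1157 CPM against 1672 to 2140 CPM in the other 3, as it was for *bru1*. Without labelled knockdown replicate 2 all 10 were called lower, 1 was without labelled knockdown replicate 1, and 0 were without *Tj-Gal4* replicate 1 (edgeR, with 1 at an unadjusted p under 0.05). The list median was -0.78, -0.19 and -0.30 in these 3 fits.

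Markers of other cells were also read beside the rise of *bam*, *nanos*, *pum* and *stwl*. The summed level of 8 cyst and hub genes was 736 and 762 CPM in the controls and 843 and 749 CPM in the labelled knockdown, with 1 gene called higher (*zfh1*) and 3 lower (*so*, *hh* and *upd1*). A large part of each sum came from *chinmo*, which was not called, at 332 and 309 CPM in the controls and 457 and 439 CPM in the labelled knockdown. The sums therefore do not show that the other genes of this list were stable. A higher call in this list was made in 1 of the 4 fits that left out a library, that without labelled knockdown replicate 2. Among genes of muscle sheath, accessory gland, ejaculatory bulb and fat body, *Lsp2* (log2 fold change 0.98) and *EbpIII* (0.70) were called higher, and *Ebp* (-1.67) and *Act57B* (-0.53) lower. The 10 matched genes of this list summed to 376 and 359 CPM against 346 and 358 CPM, so the sums join changes in opposite directions. Of these genes, 7 were tested, 2 were called higher and 2 lower, with 0 to 2 in either direction when a library was left out. The early germline list summed to 594 and 607 CPM in the controls and to 1007 and 1057 CPM in the labelled knockdown. The part of cell composition in the change of the regulators was not tested.

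**Figure D5:**
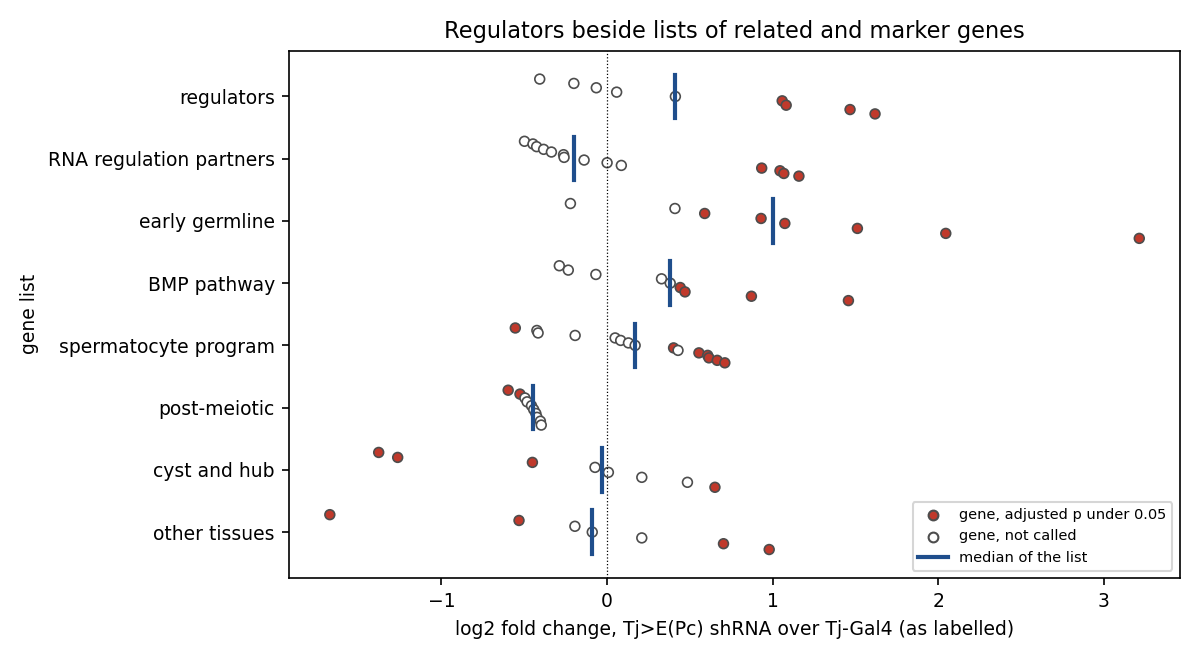
Log2 fold change of each gene tested in the regulators and in 7 lists of related and marker genes, filled where adjusted p was under 0.05 (edgeR), with the list median as a blue line. The early germline list has the highest median, 1.002, and the post-meiotic list the lowest, -0.45. The lists were chosen with earlier results of these data known.

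The genes most like *bam* were taken as those whose 4 log2 CPM values, each centred on its mean, lay nearest by Euclidean distance among 11162 other genes. They were *CG3251* (distance 0.029), *CG12204* (0.0625), *CG15599* (0.069), *Dis3* (0.104) and *CG13218* (0.113), with log2 fold changes from 1.52 to 1.83. With 4 libraries this likeness describes the shared order of libraries, highest in labelled knockdown replicate 2, and little more. *CG3251*, the nearest, had 23.1 and 25.6 CPM in the controls and 67.4 and 81.9 CPM in the labelled knockdown. Of these, *Dis3*, a ribonuclease subunit gene of the RNA exosome, had nearly the same level per length as *bam*, with 5.50 and 6.18 cRPKM in the controls and 15.4 and 18.4 cRPKM in the labelled knockdown.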

How the data were processed

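RNA-seq of whole testes was analysed in 4 libraries; the 4 ChIP-seq samples were not used here. The authors aligned reads with Bowtie 0.12.7 to dm3 (up to 2 mismatches, a single site), assigned them to merged exons of FlyBase genes and deposited raw counts; per the methods a read in a region of overlap was divided between genes, while the deposited counts are whole. The authors also deposited cRPKM, an RPKM from edgeR pseudo-counts, merged transcript length and a common library size, for 11773 of 14256 genes. Groups and replicate numbers came from the sample titles. Each replicate was a pair of testes, so p-values rest on the spread between 2 such pairs a genotype. In edgeR's fit that spread is not estimated from a gene alone, as it is moderated with the spread of the other genes tested.

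Counts were fitted with edgeR 4.0.16 in R 4.3.3 (filterByExpr, TMM, quasi-likelihood F test, Benjamini-Hochberg; a standard error is the log2 fold change over the square root of F). DESeq2 1.42.0 and limma 3.58.1 on log2(cRPKM + 1), for mean cRPKM of at least 1, were alternatives, with upper-quartile factors, library size alone, edgeR's exact test, other count filters, a replicate block, loess trends on gene length or depth, counts converted from occupied positions to reads, and each library left out; where 1 library was left in a genotype, it was assumed to vary like the other. Every calling fit was tested on simulated counts. The regulators, the 7 lists (80 genes, 74 matched to the count table) and the tests were chosen with earlier results of these data known. Genes named are all regulators, the largest called changes within a list, reference genes, the 5 genes nearest to *bam*, and uncalled list genes chosen after their values were seen. The planned ratio to *vas* was replaced by *zpg* and *aub*. Identifiers of 13564 genes matched a symbol. No sequences are shown.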

Additional observations from a re-analysis of the deposited data

How the results depend on the processing

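Under all 18 alternatives *bam*, *nanos*, *pum* and *stwl* were called higher, at adjusted p of 0.0310 at most. Across the left-out libraries the number of regulators called lower was between 0 and 1, and it was 1 with the crossed pairing below (*bru1* each time). For *bgcn*, the log2 fold change turned negative with DESeq2 (-6.23e-05), with the length trend removed (-0.18, and -0.18 with the replicate block added) and without *Tj-Gal4* replicate 2 or labelled knockdown replicate 1 (-0.032 and -0.066). For *Rbp9* it turned positive with library size alone (0.0016) and without *Tj-Gal4* replicate 2 or labelled knockdown replicate 1 (0.063 and 0.02). With each library left out, *bgcn* ran from -0.066 to 0.17 and *Rbp9* from -0.19 to 0.063. None of these values was called, and the cause was not tested.

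The replicate block changed no call of a regulator (*bam* 1.64, *nanos* 1.47) and called 2107 genes higher and 888 lower over all genes, against 2517 and 1272 without it. Same-numbered libraries are not known to be paired, and their deviations correlated at -0.25 over genes. Crossed pairing, chosen after seeing the data, called 3190 genes higher and 3014 lower, 5 of them regulators higher and 1 lower. Of all calls, 66.4% were higher, 54.9% with the length trend removed, 51.4% with crossed pairing and 82.8% with limma on log2(cRPKM + 0.1). DESeq2 called 1453 genes higher and 724 lower, limma on log2(cRPKM + 1) 1887 and 511, limma on log2(cRPKM + 0.1) 1558 and 323, and the fit on counts converted to reads 3035 and 2209. With a library left out, 1219 to 3288 were called higher and 447 to 2652 lower. *bam* has the fewest counts of the regulators, 36 to 223 in a library.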
